A study of Mus musculus with 6 samples.

Results

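Sgip1 and 9 proteins that work with it at clathrin-coated pits were followed in activated mouse CD4 T cells with and without vasoactive intestinal peptide (VIP). The 10 genes are Sgip1, its relatives Fcho1 and Fcho2, the scaffold genes Eps15, Itsn1 and Itsn2, and the AP-2 subunit genes Ap2a1, Ap2b1, Ap2m1 and Ap2s1. Each gene was followed through every non-control probe that the scanner files name after it. This gave 33 probes of 10 genes, out of 41174 probes and 27975 gene symbols on the array. Sgip1 was chosen because of its measured VIP response on these same arrays, so its ratios are given below as a description, without a test.

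Each of the 6 two-colour arrays held RNA of VIP-treated cells in one dye and RNA of untreated cells in the other. The VIP-treated cells came from spleens of C57BL/6J mice and were CD4 T cells activated by PMA and ionomycin with VIP added. The untreated cells were the same kind of cells, with the same PMA and ionomycin but no VIP, so no resting cells were compared. Male and female mice aged 6 to 32 weeks were used, with 5 to 10 spleens pooled per sample and CD4 cells taken with magnetic beads. The sample titles call the cells splenocytes. Neither the VIP dose nor the length of treatment is stated in the labels. VIP carried Cy5 on replicates 1, 3 and 5 and Cy3 on replicates 2, 4 and 6. PMA acts on protein kinase C and ionomycin lets calcium into the cell, so the pair bypasses the T cell receptor. VIP is a neuropeptide that acts on T cells through the receptors VPAC1 and VPAC2, which couple to cyclic AMP.

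Clathrin-mediated endocytosis takes receptors from the cell surface into coated vesicles. Proteins of the muniscin family, FCHO1, FCHO2 and SGIP1, bind the membrane and, through a domain like that of the AP-2 mu subunit, cargo and scaffold proteins. EPS15 and the intersectins link them to AP-2, the adaptor complex that joins cargo to clathrin. SGIP1 binds endophilin and is known mainly from brain, where it slows the internalisation of the CB1 cannabinoid receptor. In humans, loss of FCHO1 causes an immunodeficiency with few T cells, and AP-2 takes up CD4 and the T cell receptor complex through their sorting motifs.

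The array carries 5 Sgip1 probes, and their sequences are shown because they did not behave alike. Each line gives the first 30 of the 60 bases of a probe, 5′ to 3′, as the scanner files hold them, with its place and strand on mm9. No base is in capitals, since no motif was searched.
A_52_P330584, chr4:102555879-102555938, plus strand: cccaaatctcttgcatttgacatggaactt
A_52_P540342, chr4:102640247-102640801, plus strand: attcccgatatctcccagaagtcagaaaat
A_52_P35528, chr4:102643625-102643684, plus strand: ggtgggtaccttgtttcttctttactcatg
A_51_P328951, chr4:102644183-102644242, plus strand: gcagttgtttctagtgagctctgtagattt
A_52_P260971, chr16:74779655-74779714, minus strand: tttagctgtttctactgactatgagaaaat

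Only 4 of them lie on chromosome 4, where the RefSeq table places Sgip1. The probe A_52_P260971 carries the Sgip1 name in the file but lies on chromosome 16. It is the exception among the members, since 32 of the 33 probes lie on the chromosome of their gene. On chromosome 4 the 2 probes farthest downstream, A_52_P35528 and A_51_P328951, are separated by 498 bases. A_52_P540342 ends 3.441 kb upstream of the end of the last probe, and A_52_P330584 ends 88.3 kb upstream of it. The coordinates of A_52_P540342 span 555 bases, more than the 60 bases of the oligonucleotide. Whether a probe lies in a coding exon or in a UTR was not analysed here.

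At both downstream probes, RNA of VIP-treated cells gave more Sgip1 signal than RNA of untreated cells on all 6 arrays. For A_52_P35528 the log2 ratios of VIP over untreated were 0.96, 1.26, 1.21, 1.21, 0.71 and 1.18 on replicates 1 to 6. Normalised intensity there ran between 1614 and 2912 in VIP-treated cells, with a median of 2462, and between 699 and 1345 in untreated cells, with a median of 1235. The 6 VIP values lay above all 6 untreated values. The fitted log2 ratio was 1.09 ± 0.059 (SE, n = 6 arrays), a fold of 2.13. For A_51_P328951 the log2 ratios were 1.49, 1.53, 1.57, 1.43, 1.11 and 1.36 on the same arrays. Normalised intensity was 894 to 1679 in VIP-treated cells, with a median of 1460, and 332 to 623 in untreated cells, with a median of 580. Here too the groups did not overlap, and the fitted log2 ratio was 1.41 ± 0.060 (SE, n = 6 arrays), a fold of 2.66. Sgip1 was chosen by its ratio, so the separation at both probes is a description and adds no support. In bulk RNA, a change in the share of cells that carry a transcript and a change in RNA per cell cannot be told apart.

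**Figure D1:**
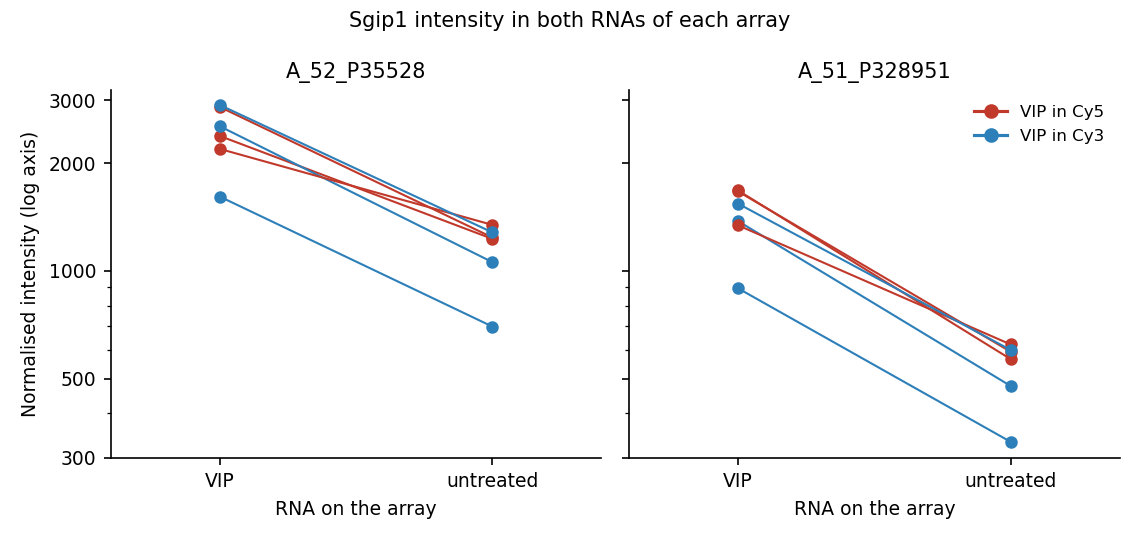
Normalised intensity (log axis) of the Sgip1 probes A_52_P35528 and A_51_P328951 in VIP-treated and untreated cells, with a line for each of the 6 arrays, red where VIP was in Cy5 and blue where it was in Cy3. Every line runs lower on the untreated side, in both dye orientations.

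These probes held the first and the second place by log2 ratio among the 33233 probes fitted, and they were the only 2 probes over a log2 ratio of 1. A_51_P328951 exceeded A_52_P35528 by 0.33 ± 0.066 in the dye-adjusted log2 ratio (SD, n = 6 arrays), and it did so on 6 of 6 arrays. The ratio of A_51_P328951 hardly differed between dye orientations, with a mean of 1.39 where VIP was in Cy5 and 1.44 where it was in Cy3. For A_52_P35528 these means were 0.96 and 1.22. The 3 slides each held 1 array per orientation. Their slide means lay between 1.23 and 1.51 for A_51_P328951 and between 0.95 and 1.21 for A_52_P35528. VIP was higher on every slide and in each orientation, which follows from ratios above 0 on all 6 arrays. The orientation coincided with the position of the array on its slide, so dye and position cannot be told apart.

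Replicate 5 had the lowest ratio at both probes. Without it, the SD of the ratios fell to 0.083 for A_51_P328951, against 0.168 over all arrays, and to 0.120 for A_52_P35528, against 0.216. The fitted log2 ratios without replicate 5 were 1.48 and 1.15. That array also stood apart in other ways. Its VIP over untreated log2 ratio was 4.18 for the Y-linked gene Eif2s3y and -3.29 for Xist, while both stayed between -0.34 and 0.46 on the other arrays. It had 13.5% of spots marked as outliers, against 0.574% to 4.44% on the others. The VIP and untreated RNAs of that array thus differed in transcripts that mark male and female cells, so its ratios may not compare RNAs of the same pool of mice. The part of these differences in the lower Sgip1 ratio was not tested.

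The other 3 Sgip1 probes did not show the difference. A_52_P330584, far upstream, had log2 ratios of 0.02, 0.14, -0.13, -0.07, 0.19 and -0.05. A_52_P260971, on chromosome 16, had -0.02, -0.05, 0.07, -0.12, -0.08 and -0.04. Both were well above background on 1 array only in either channel, so they did not pass the detection filter. For these probes no level of Sgip1 RNA can be given for either group.

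A_52_P540342 was well above background on all 6 arrays, but its spots were marked as non-uniform outliers on replicates 1 to 4. The remaining values, -0.19 and -0.09, were too few to be fitted. With the marked spots kept, its VIP over untreated log2 ratios were 0.57, -0.55, 0.68, -0.83, -0.19 and -0.09. The sign of these ratios went with the dye and not with VIP on replicates 1 to 4. As Cy5 over Cy3 the same values were 0.57, 0.55, 0.68, 0.83, -0.19 and 0.09, above 0 on 5 of 6 arrays. A fit with the marked spots kept gave a VIP log2 ratio of -0.07 ± 0.118 and a dye effect of 0.42 (SE, n = 6 arrays). The dye effects of A_52_P35528 and A_51_P328951 were -0.13 and -0.03.

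The brightness of A_52_P540342 was also uneven from array to array. Its mean log2 intensity over both channels lay between 8.06 and 12.63, a range of 4.58, and 0.32% of the probes that passed detection had a range as large. The ranges of A_52_P35528 and A_51_P328951 were 0.86 and 0.87. The VIP difference at Sgip1 therefore rests on 2 neighbouring probes at the downstream end, and the spots of the third bright probe were not usable on 4 arrays.

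**Figure D2:**
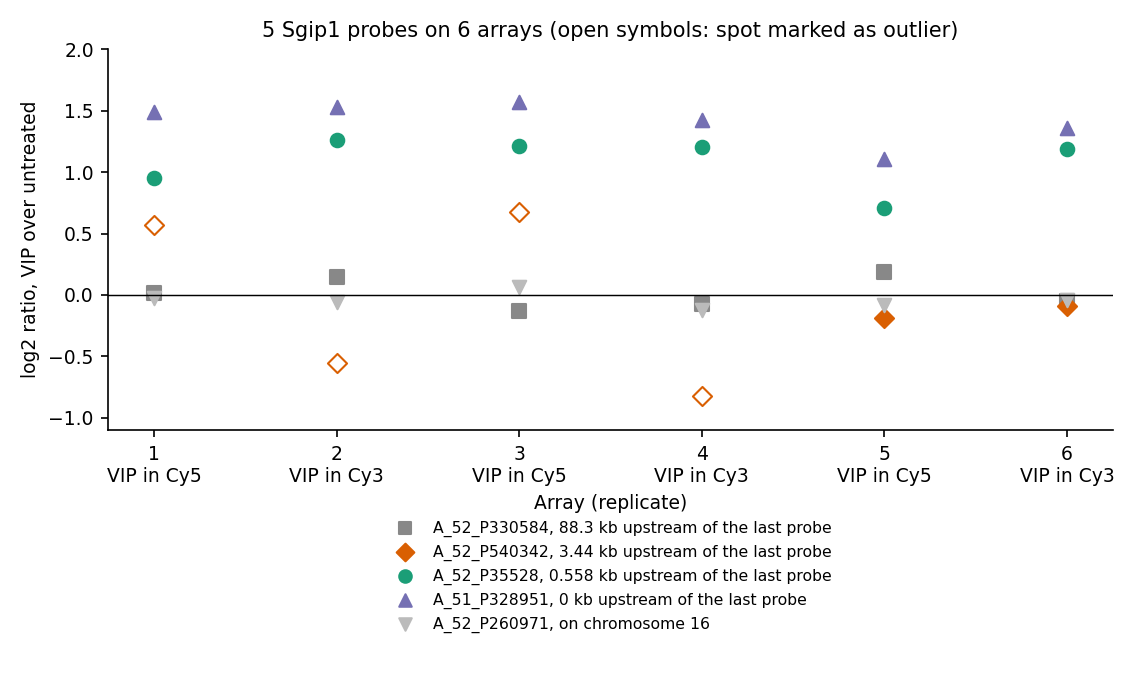
Log2 ratio of VIP over untreated for the 5 Sgip1 probes on each of the 6 arrays, labelled with the dye that carried VIP. Open symbols are spots marked as outliers, and only A_52_P35528 and A_51_P328951 stay above 0.7 on every array.

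**Figure D3:**
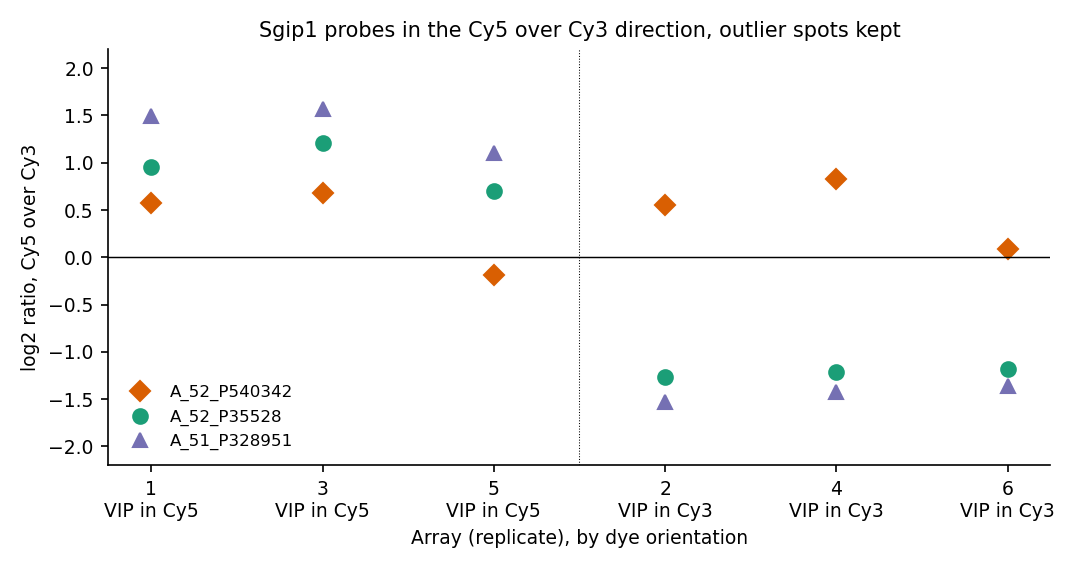
Log2 ratio of Cy5 over Cy3 on the 3 arrays with VIP in Cy5 (left) and the 3 with VIP in Cy3 (right), outlier spots kept. A_52_P35528 and A_51_P328951 change sign with the dye swap, while A_52_P540342 stays above 0 on 5 of 6 arrays.

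Over the 10 genes, 31 of 33 probes passed detection and 30 were fitted. A probe was called where limma's Benjamini-Hochberg adjusted p over all fitted probes was under 0.05. Of the 30 probes, 2 were called higher in VIP-treated cells, both of Sgip1, and 0 were called lower. Over the array, 2.15% of the 33233 probes were called, 1.61% higher and 0.536% lower. Nothing is read from the 2 Sgip1 calls beside that share, since they chose the members.

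The 9 partners of Sgip1 gave no call. All of their 28 probes passed detection and were fitted, and limma called 0 of 28, with 2 at an unadjusted p under 0.05. Their median log2 ratio was 0.0123, against -0.000324 over all fitted probes, and their median size of change was 0.0446 against 0.0439. Among partner probes with 6 values, 0 had the same sign on all arrays, a pattern shown by 6.19% of such probes over the array. The 95% confidence intervals of the 28 probes together reached from 0.854-fold to 1.22-fold, or -0.23 to 0.29 on the log2 scale. This range holds for the main processing only. It bounds the 5 dim Itsn1 probes and Itsn2 A_52_P496964 loosely, since the added offset draws their ratios toward 0. With no offset, Itsn1 A_52_P342880 had -0.27. With Agilent's own ratios it had -0.32 and Itsn1 A_52_P396498 had -0.41, all below the range. Over all alternatives the highest partner value was 0.22, inside it.

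**Figure D4:**
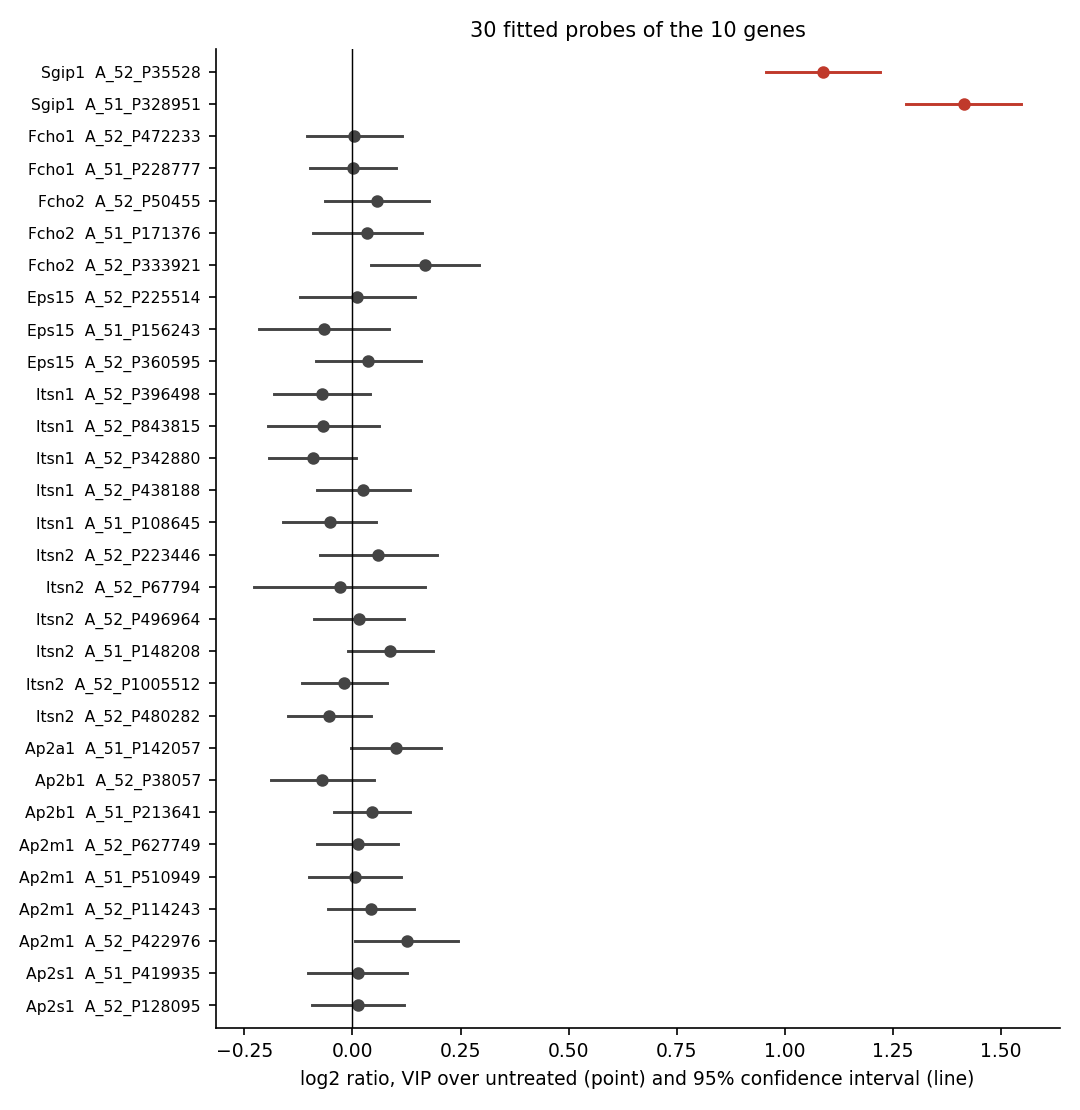
Fitted log2 ratio of VIP over untreated (point) with its 95% confidence interval (line) for the 30 fitted probes of the 10 genes. The 2 Sgip1 probes (red) lie at 1.09 and 1.41, and the 28 probes of the other genes (grey) lie between -0.09 and 0.17.

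Fcho1 and Fcho2 are the other muniscins and, unlike SGIP1, carry an F-BAR domain that binds curved membrane. Their 5 probes had a median log2 ratio of 0.0349. The 2 Fcho1 probes had log2 ratios of 0.004 ± 0.049 (n = 5 arrays) and 0.002 ± 0.045 (SE, n = 6 arrays). For A_52_P333921 of Fcho2, at chr13:99521540-99521599, the ratios ran between -0.13 and 0.45 with a median of 0.15. Its normalised intensity was 457 to 792 in VIP-treated cells and 335 to 725 in untreated cells. These ranges overlapped, but they pool arrays that were not scaled to each other. VIP was higher on 5 of 6 arrays, and the fit gave 0.17 ± 0.056 on the log2 scale (SE, n = 6 arrays, limma adjusted p = 0.22). This was the highest ratio among the partners. Without replicate 5 it was 0.21 ± 0.054 and was called (limma adjusted p = 0.049), the lowest adjusted p of 21 settings that ran up to 1.0. The other 2 Fcho2 probes, A_52_P50455 and A_51_P171376, had 0.06 and 0.03 (limma adjusted p = 0.75 and 0.88).

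Eps15 encodes a scaffold whose EH domains bind short peptide motifs of endocytic proteins. Its 3 probes had log2 ratios of 0.01, -0.07 and 0.04, with limma adjusted p between 0.77 and 0.97. The probes A_51_P156243 and A_52_P360595 were bright and had opposite signs, each with an interval that held 0.

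Itsn1 and Itsn2 encode intersectins, scaffolds with EH and SH3 domains whose long forms also activate the small GTPase Cdc42. The 5 Itsn1 probes were dim, well above background on 2 to 4 arrays in untreated cells. Their ratios lay between -0.09 and 0.03, and the lowest of all partner probes was among them, A_52_P342880 at -0.09 ± 0.045 (SE, n = 6 arrays, limma adjusted p = 0.45). Since dim probes draw ratios toward 0 after the added offset, these values bound the Itsn1 change only loosely. When no offset was added, the Itsn1 ratios lay between -0.27 at A_52_P342880 and 0.06 at A_52_P438188.

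The 6 Itsn2 probes had log2 ratios between -0.05 and 0.09. The highest was A_51_P148208, at 0.09 ± 0.045 (SE, n = 6 arrays, limma adjusted p = 0.46), with VIP higher on 5 of 6 arrays. The probe A_52_P67794 varied most between arrays, with a lowest ratio of -0.46 and a highest of 0.69. The dye effect of A_52_P67794, -0.27, was larger than its VIP ratio of -0.03 ± 0.089 (SE, n = 6 arrays). A_52_P496964 was dim too, well above background on 3 arrays in either group, and its log2 ratio was 0.02, against 0.15 when no offset was added. Over Eps15, Itsn1 and Itsn2 the median of 14 probes was -0.0243, with 6 above 0 and 8 below.

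The AP-2 complex is built of 4 different subunits. Ap2a1 encodes an alpha subunit, which binds membrane phosphoinositides and accessory proteins. On the log2 scale its single probe stood at 0.10 ± 0.046 over untreated (SE, n = 5 arrays, limma adjusted p = 0.40) and was above 0 on all 5 arrays with a value. Ap2b1 encodes the beta subunit, which binds clathrin, and its 2 probes had log2 ratios of -0.07 ± 0.054 and 0.05 ± 0.039 over 6 arrays (SE), with limma adjusted p of 0.67 and 0.71.

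Ap2m1 encodes the mu subunit, which reads tyrosine-based sorting motifs. Its probes A_52_P627749, A_51_P510949 and A_52_P114243 gave log2 ratios of 0.01, 0.01 and 0.04. A_52_P422976 gave 0.13 ± 0.053 (SE, n = 5 arrays) with an unadjusted p of 0.041 and a limma adjusted p of 0.35. It read 166 to 547 in VIP-treated cells and 150 to 526 in untreated cells, and VIP was higher on all 5 arrays with a value. Its spot on replicate 5 was left out as an outlier and, if kept, had a log2 ratio of -0.23. Ap2s1 encodes the sigma subunit, which with alpha reads dileucine motifs such as that of CD4. Both of its probes had 0.01, with limma adjusted p of 0.95 and 0.96. The 9 AP-2 probes together had a median of 0.0126, with 8 above 0 and 1 below. Ap2a2, which encodes the other alpha subunit, was not among the 10 genes and is not in that count. Its 3 probes had log2 ratios between -0.12 and 0.02, with the brightest at -0.12 (limma adjusted p = 0.46).

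The remaining machinery of coated vesicles was read from 4 lists of 88 genes, of which 86 could be tested. Of these, 2 had a probe called higher, 0 had one called lower and 84 had none called. Over the array 1.92% of genes had a probe called higher and 0.704% had one called lower, so the listed genes were near that background. The medians of the lists, taken over the brightest probe of each gene, ran between -0.00678 and 0.0243, against -0.00042 over all genes.

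Both called genes were among 25 genes of membrane bending and scission. Snx18 encodes a sorting nexin with a BAR domain that tubulates membrane. Its probe A_52_P73134 rose by 0.46 ± 0.045 on the log2 scale (SE, n = 6 arrays, limma adjusted p = 6.2e-04), higher in 6 of 6 arrays, and its second probe had 0.15. Fnbp1 encodes FBP17, an F-BAR protein of membrane tubules. Its probe A_51_P305027 rose by 0.25 ± 0.056 on that scale (SE, n = 6 arrays, limma adjusted p = 0.045), higher in 6 of 6 arrays, and its 3 probes lay between 0.07 and 0.25. The Fnbp1 call was lost without replicate 1, 2, 3, 5 or 6, with limma adjusted p of 0.092, 0.18, 0.12, 0.053 and 0.16 in that order. Over all alternatives its adjusted p ran between 0.0035 and 0.45, and that of Snx18 between 1.2e-06 and 0.062.

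Other cargo adaptors and coat builders gave 0 calls in limma among 24 tested genes, 3 of which had a probe at an unadjusted p under 0.05. Here and for the markers below, p is the smallest over the fitted probes of a gene, which raises such counts. No share over all genes stands beside them, so nothing is read from them. The genes with the smallest p were Hip1r, which links clathrin to actin, at 0.16 on the log2 scale (limma adjusted p = 0.16), and the EPS15 relative Reps1, with 0.14 (limma adjusted p = 0.20). The 16 genes of clathrin chains, kinases and uncoating gave 0 calls in limma, with 5 genes at an unadjusted p under 0.05. The genes with the smallest p were the kinase gene Bmp2k, at 0.13 on the log2 scale (limma adjusted p = 0.18), and the lipid phosphatase gene Synj2, with 0.19 (limma adjusted p = 0.27). Among the adaptor complexes of other membranes, limma called 0 of 21 genes, and 5 had an unadjusted p under 0.05. Ap1s2 encodes a sigma subunit of AP-1, and its probes disagreed in direction. A_51_P113144 had a log2 ratio of -0.22 and its brightest probe A_51_P435321 had 0.21 (limma adjusted p = 0.077 and 0.089). Ap3m2 of AP-3 had 0.18 (limma adjusted p = 0.11). Ap1s2 was called lower at A_51_P113144 with array weights (limma adjusted p = 0.029), with channels fitted separately (0.011) and without replicate 6 (0.046). It was called higher at A_51_P435321 with channels fitted separately (limma adjusted p = 0.022) and without replicate 5 (0.045). Ap3m2 was called higher with array weights (limma adjusted p = 0.047), with channels fitted separately (0.041) and without replicate 5 (0.039). Over the alternatives the adjusted p ran up to 1.0 for A_51_P113144 and up to 0.99 for Ap3m2.

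**Figure D5:**
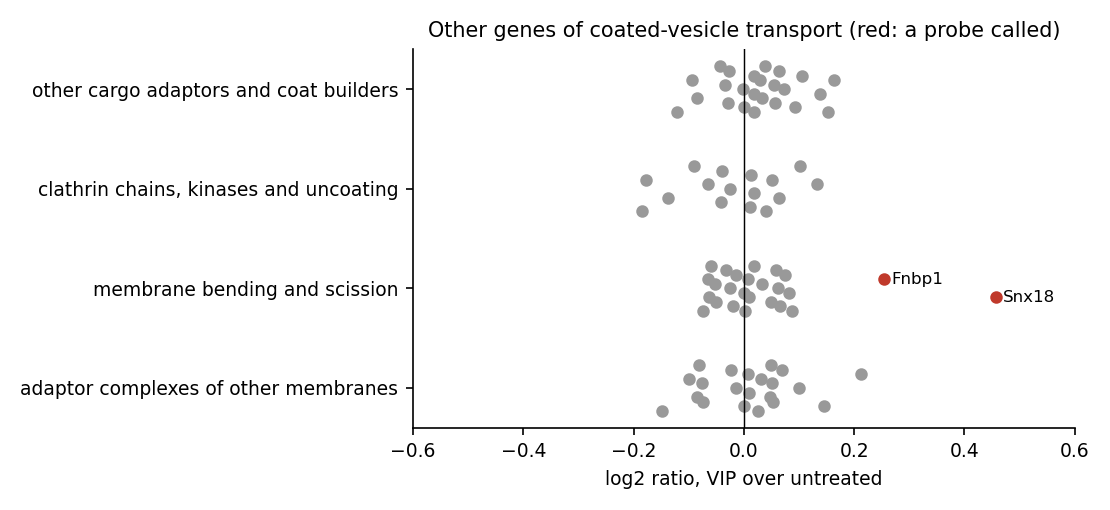
Log2 ratio of VIP over untreated for the 86 tested genes of the 4 coated-vesicle lists, 1 point a gene (the called probe in red, otherwise the brightest probe in grey). Only Snx18 at 0.46 and Fnbp1 at 0.25 were called, and vertical spread within a list only separates the points.

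The genes whose ratios over the arrays lay nearest to those of A_52_P35528 were taken from 14022 genes with values on all 6 arrays. The measure was the root mean square difference of dye-adjusted log2 ratios over 6 arrays. The nearest were Bend4 at 0.265, Epas1 at 0.280, Cxcl10 at 0.292, Ccr8 at 0.308 and Ccr7 at 0.314. All 5 had dye-adjusted log2 ratios above 0 on every array, and their fitted log2 ratios lay between 0.81 and 0.89. They were chosen by this likeness, so it is a description and not a test.

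Markers of the cells were read on the same arrays. Cd4, Cd3e and Cd3g were well above background on all 6 arrays in both groups. Their mean log2 intensities, at 1 probe a gene, were 8.06, 7.80 and 11.995 in that order. Over the array 1.92% of genes had a probe called higher and 0.704% had one called lower, the shares to set beside the marker counts. Of 15 CD4 T cell markers, 3 were called higher in VIP-treated cells, among them the costimulatory receptor gene Cd28 at 0.28 and the adhesion gene Cd2 at 0.22. Of 8 tested myeloid and dendritic cell markers, 1 was called, Cd14 at 0.57 ± 0.069 (SE, n = 5 arrays, limma adjusted p = 0.0029), and Lyz2 had 0.10. Lyz2, at a mean log2 intensity of 13.47, was the brightest of these markers. Intensity was summed over 5 of them with values on all 6 arrays, and Cd14 was not among these. The sum was 8608 to 33651 in VIP-treated cells and 7148 to 33204 in untreated cells, higher with VIP on 5 of 6 arrays. Its part in the Sgip1 ratio was not tested. Of the markers of other cells, limma called 0 of 5 for CD8 T and NK cells, 0 of 7 for B cells, 0 of 5 for red cells and platelets, 0 of 6 for stroma and 0 of 7 for neurons. An unadjusted p under 0.05 was reached by 1 CD8 T and NK cell marker, 1 neuronal marker and none of the others. Some markers of other cells were bright. Cd8b1, Blnk, Ms4a1 and Hba-a1 were well above background on all 6 arrays in both groups. Their mean log2 intensities were 12.27, 12.83, 10.89 and 11.89 in that order. Cd8a and Pax5 were well above background on 3 arrays in each group. Of 8 listed neuronal markers, 7 had a probe that passed detection, and Stmn2 had 0 of 2. Among the others, 2 of 5 probes passed for Map2, 1 of 3 for Snap25 and 5 of 6 for Syt1. For Syn1, Nefl and Rbfox3 1 of 2 passed each, and for Gap43 1 of 1. On replicate 6, 99% of VIP spots and 99.9% of untreated spots were well above background, so that array hardly separates probes. The levels that follow are for 1 probe a gene. Syn1, Map2 and Nefl were well above background on all 6 arrays in both groups, Rbfox3 on 5 arrays in VIP-treated cells and 6 in untreated cells, Syt1 on 4 and 5, Gap43 on 3 and 3, and Snap25 on 2 and 3. Their summed intensity over 6 genes was 98394 to 202773 in VIP-treated cells and 71699 to 229053 in untreated cells, higher with VIP on 2 of 6 arrays, and the Syn1 probe, at a mean log2 intensity of 16.90, made up most of it.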

How the data were processed

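Per the file headers, the authors read 6 scanned arrays with Agilent Feature Extraction 9.5.1.1. The deposited scanner files give mean signal and local background intensity per spot and channel, and outlier, background and saturation flags. They also hold a log10 ratio of Cy5 over Cy3. In the authors' deposited series table the log10 ratios run as VIP over untreated, and they matched the scanner ratios within 4.5e-06 once turned for dye. It served as an alternative.

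Intensity was corrected by normexp (offset 50) and normalised by loess within arrays in limma 3.58.1 (R 4.3.3). Arrays were not scaled to each other, so intensities are given as ranges. The 1639 control spots and outlier spots were left out, and spots of 1 probe were averaged. Probes well above background on at least 3 arrays in either group, with at least 3 values, entered a fit of 2 terms, the dye and VIP. There were 4 residual and 6.42 prior degrees of freedom. Adjusted p is Benjamini-Hochberg's over 33233 probes. The p-values measure the spread between 6 arrays, labelled as biological replicates, and that number limits their precision. The script was tested on simulated data.

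Between 56.9% and 99.9% of spots per channel were well above background. The members, lists and rules were chosen with earlier results of these data known. Every member probe was named. In each coated-vesicle list every called gene was named, or else the 2 with the smallest p, and so were the 5 genes nearest to Sgip1. Ap2a2 was named beside the AP-2 members. Marker counts per list and single marker values also stand where a result touches them. Genes carry the names of the file, and probe positions are on mm9. The lists cover cargo adaptors, clathrin, membrane bending, other adaptor complexes and 7 sets of cell markers. The values of 1 called marker are not reported here.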

Additional observations from a re-analysis of the deposited data

How the results depend on the processing

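There were 23 alternatives, 6 of which left out 1 array. The Sgip1 log2 ratios, given as a description, were 1.03 to 1.15 for A_52_P35528 and 1.37 to 1.56 for A_51_P328951. With 1 probe a gene the members gave 1 call, and without replicate 5 they gave 3, the third being Fcho2 A_52_P333921. Apart from that probe the 28 partner probes were not called in any of 574 computed values. The values ran between -0.41 and 0.22, with both ends at Itsn1 probes. In 43 of these values, from 13 probes, the sign was opposite to that reported, and 0 of the 43 were called. Ap1s2 was called in both directions, at different probes. The count over the whole array was 713, of which 75.0% were higher. It was 117 with normexp offset 0 (92.3% higher), 182 with median centring (95.1%), 38 with Agilent's own ratios and 38 with the authors' deposited table (100% in both), 299 without a dye intercept, 1136 with channels fitted separately (62.9%) and 289 at adjusted p under 0.01. Leaving out 1 array gave 290 to 1187, the highest without replicate 5. The 2 listed vesicle genes became 1 with offset 0, no background correction, median centring, outlier spots kept, 1 probe a gene, no dye intercept, slide as a block or adjusted p under 0.01. They became 0 with Agilent's ratios or the authors' deposited table, 4 with array weights and 5 with channels fitted separately, and 1 to 3 with 1 array left out. Snx18 was called in 21 of 23 alternatives and Fnbp1 in 8. The cause of these shifts was not tested. Each ratio is already taken within an array that holds both RNAs of a replicate. Signal over background limits the 5 Itsn1 probes, Itsn2 A_52_P496964 and 2 Sgip1 probes.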
